A study of Mus musculus with 36 samples.

Results

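The genes described here are Kif15, Slc9b2, Sema6d and Gvin-ps4, 4 of the 56923 rows in the table that compares natural killer (NK) cells of the mouse treated with ionomycin or vehicle. They were chosen for the size of their ionomycin change, so their values in those 6 libraries are a description, without a test. The other 3 tables were not used for the choice. All 4 genes were listed in all 4 tables, at levels given as TPM, an abundance scaled for transcript length and library total. Their mean reached 1 TPM for 4 of them in the ionomycin table, 3 in the antibody table, 3 in the tumour table and 2 in the subset table.

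The series holds 36 libraries in 12 groups of 3 replicates. Ionomycin is an ionophore that carries calcium across membranes, and NK cells were purified from wild-type (WT) mouse splenocytes kept with it or with vehicle for 22 h. In a second culture, NK cells came from WT splenocytes held in medium alone or on plates coated with antibodies to pairs of activating receptors, NKp46 with NKG2D or NKp46 with DNAM-1, over 48 h. The subset table covers mature splenic NK cells (CD27-CD11b+) of WT (B2m+/+, C57BL/6) and B2m-/- (KO) mice, which lack the light chain of MHC class I in all cells. They were sorted into TP cells (Ly49C+Ly49I+NKG2A+), SP cells (Ly49C-Ly49I+NKG2A-) and TN cells (Ly49C-Ly49I-NKG2A-). The last 3 libraries are CD27-CD11b+ NK cells from B6 mice, taken 10 days after subcutaneous inoculation with MC38 B2m-/- cells, a line of mouse colon carcinoma while the hosts themselves are given as WT. The ages of the mice are not given in the sources used here.

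Kif15 encodes a mitotic kinesin that, with Kif11, slides spindle microtubules apart, and Tpx2 recruits it to the spindle, so it is best known from dividing cells. Slc9b2 encodes a sodium/proton exchanger that is known from osteoclasts and from organelle membranes. Sema6d encodes a transmembrane semaphorin that binds plexin-A1, a receptor that can signal through Trem2 and Tyrobp in myeloid cells. Gvin-ps4 is a pseudogene of the very large interferon-inducible GTPases, whose intact relatives include Gvin1 and Gvin2.

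Promoter and transcript sequences are shown first, since the rest turns on which of these genes had reads of their own. RefSeq promoters (250 bases before to 50 after the start site, build GRCm38.p6) matched 3 of the 4 genes, and Gvin-ps4 had no entry. The promoters of the 2 genes that were high with ionomycin lie on the plus strand, at chr9:122950831-122951130 for Kif15 and chr3:135307450-135307749 for Slc9b2. Capitals mark matches, on either strand, to TTTGAA, the cell cycle homology region of many late cell cycle genes, and to GGAAA, the core bound by NFAT factors.
Kif15: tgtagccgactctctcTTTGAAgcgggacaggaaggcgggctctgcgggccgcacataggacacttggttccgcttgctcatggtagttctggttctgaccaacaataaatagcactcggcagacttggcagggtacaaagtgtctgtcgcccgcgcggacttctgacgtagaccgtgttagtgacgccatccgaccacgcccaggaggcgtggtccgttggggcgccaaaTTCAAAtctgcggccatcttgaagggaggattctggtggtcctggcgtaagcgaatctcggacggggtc
Slc9b2: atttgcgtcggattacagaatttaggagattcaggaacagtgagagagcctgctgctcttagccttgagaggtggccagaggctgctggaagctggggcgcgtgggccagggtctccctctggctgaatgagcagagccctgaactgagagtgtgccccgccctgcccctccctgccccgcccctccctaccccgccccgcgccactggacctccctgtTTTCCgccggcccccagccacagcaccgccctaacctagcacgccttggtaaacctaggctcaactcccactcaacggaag
Kif15 held TTTGAA at 2 places and Slc9b2 at none, against 17.9% of 32851 RefSeq promoters of this length with at least 1 match. GGAAA was found once before Slc9b2 and not before Kif15, against 61.3% of those promoters. Neither promoter held the AP-1 motif TGANTCA (7.8% of promoters) or AAGGTCA, bound by NR4A receptors (4.7%). Sema6d had 2 RefSeq promoters on chromosome 2. At chr2:124089719-124090018 none of these motifs was found, and at chr2:124653331-124653630 there was 1 TTTGAA and 1 GGAAA. No motif searched overlapped another in these windows.

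The pseudogene could not be told from a near copy. In the GENCODE M21 transcripts (GRCm38), matched by Ensembl identifier, Gvin-ps4 (ENSMUSG00000098934) is 3596 bases long and lies inside Gvin1 on chromosome 7, on the same strand and outside its exons. Gvin-ps2 (ENSMUSG00000099241) is 3593 bases long. Their alignment held 3592 base pairs, of which 3591 were identical (99.97%), with 5 gap positions and 1 substitution, A2497C, given as the base of Gvin-ps4, its position from the first base of that transcript, and the base of Gvin-ps2. The 61 bases around it are shown because they hold the only substitution, which is in capitals.
Gvin-ps4: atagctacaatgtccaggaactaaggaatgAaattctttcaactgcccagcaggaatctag
Gvin-ps2: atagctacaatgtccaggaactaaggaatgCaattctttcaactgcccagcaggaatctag
Of the 3547 words of 50 bases in Gvin-ps4, 3493 also occurred in Gvin-ps2, 384 in Gvin2 and 174 in Gvin1, and 3515 occurred in some other transcript. Levels of Gvin-ps4 alone are therefore uncertain, and the sum of the pair is given beside them.

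Kif15 (ENSMUSG00000036768) was at 334, 461 and 468 TPM in the 3 ionomycin libraries. In the vehicle libraries it was at 2.93 and 0.16 TPM and listed at 0 in the third. The groups did not overlap, and the difference of log2(TPM + 1) was 7.98, the largest rise among the 14372 genes tested. Slc9b2 (ENSMUSG00000037994) was at 225, 153 and 125 TPM with ionomycin and listed at 0 in all 3 vehicle libraries. Its difference of 7.35 on the same scale was the next largest and depends on the added 1 TPM, so no fold is given.

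The other 2 members were lower with ionomycin. Vehicle libraries held Sema6d (ENSMUSG00000027200) at 228, 94.7 and 19.6 TPM, and ionomycin libraries at 3.75, 0.6 and 1.03 TPM, a difference of -4.95, the third largest fall. Its groups did not overlap, but the highest and lowest vehicle libraries lay far apart. Gvin-ps4 was at 81.2, 87.3 and 91.1 TPM with vehicle, was listed at 0 in 2 ionomycin libraries and was at 0.04 TPM in the other. Its difference of -6.43 was the largest fall. Summed with its near copy Gvin-ps2, the vehicle libraries were at 133, 210 and 91.1 TPM and the difference was -3.81, so both the evenness of the vehicle libraries and the rank hold only for the copy taken alone.

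The genes next to these in rank were Spry1 (6.57), Nr4a2 (6.26) and Tnip3 (5.63) on the rising side. Ly6c2 (-5.04), F2rl2 (-4.40) and Klrg1 (-4.23) lay next to Sema6d on the falling side. Both sets were taken only from called genes with a symbol and groups without overlap, leaving out predicted genes (Gm or Rik). Of all tested genes, 2.91% were called at an adjusted p under 0.05 (limma, 238 higher and 180 lower), and nothing is read from this share for the members, whose choice used the same contrast. In 6 of the 56923 rows, all ionomycin libraries were at 50 TPM or more and all vehicle libraries at 3 TPM or less. These were Kif15, Slc9b2, Spry1, Synpo, Tnfsf8 and a row without a symbol. The opposite pattern was met by Gvin-ps4 and no other row, but not by its sum with Gvin-ps2, which was at 4.70 to 14.9 TPM with ionomycin. These bounds were chosen after the values were seen.

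**Figure D1:**
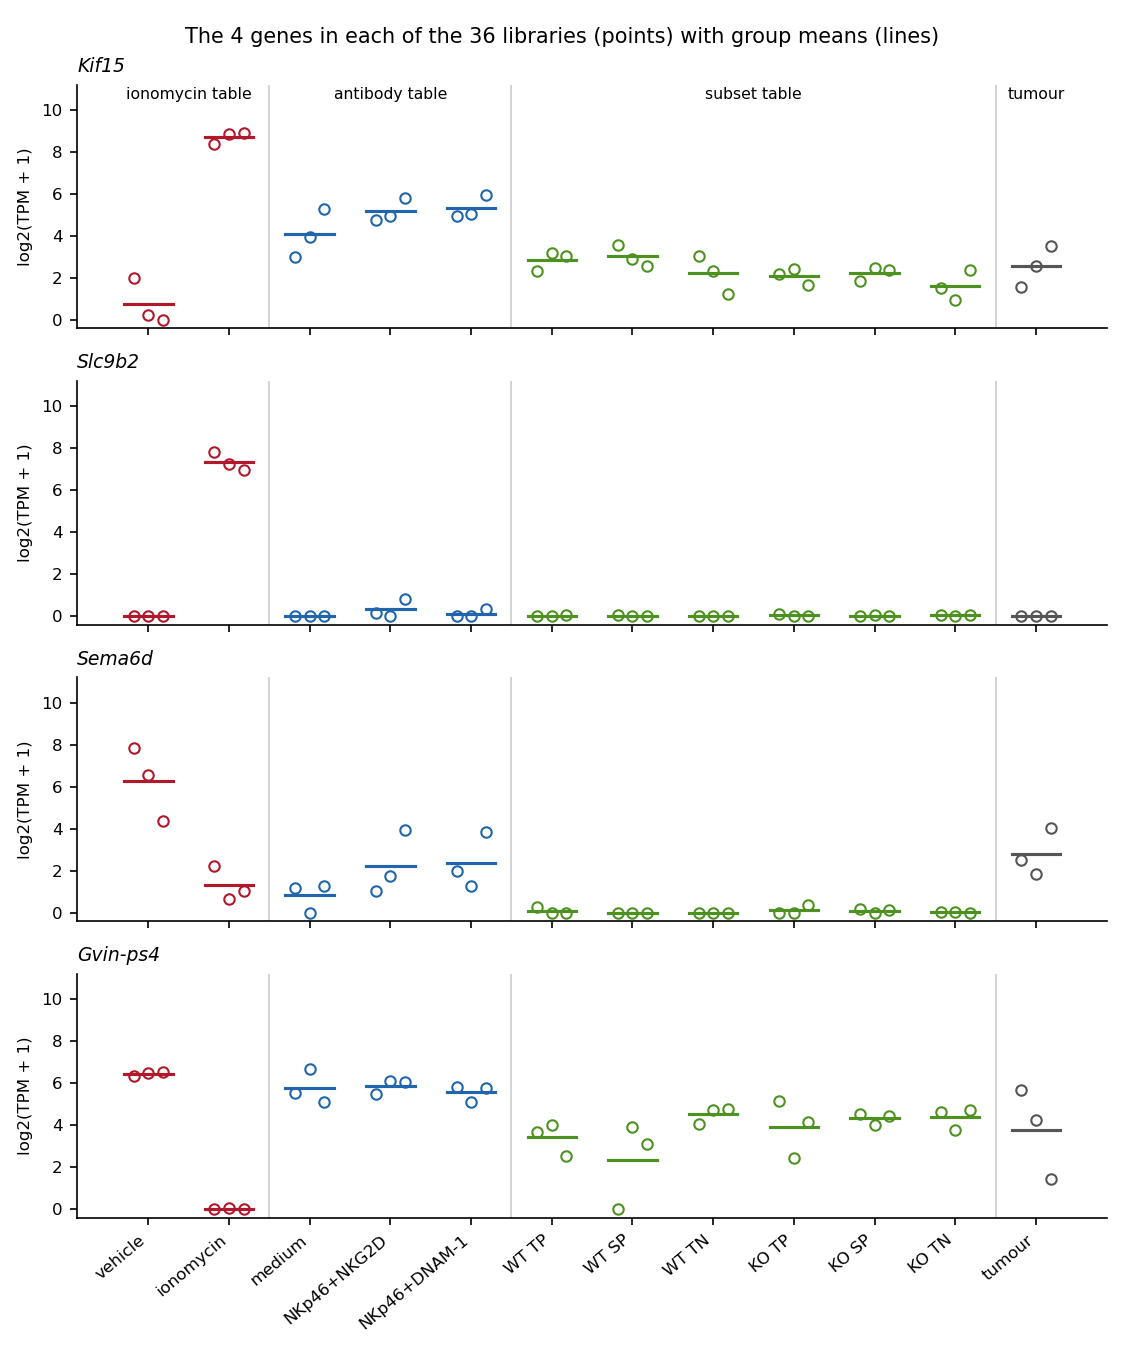
Level of each gene as log2(TPM + 1) in all 36 libraries, by group, with lines for group means and grey lines between tables, whose levels were not tested against each other. Kif15 and Slc9b2 stood at 7.98 and 7.35 above vehicle in the ionomycin libraries, and Slc9b2 stayed at or below 0.75 TPM in the other tables.

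A value of 0 can be a failed estimate rather than an absent transcript. The NK markers were present in every library, with 11 marker genes summing to 7509 to 9617 TPM with ionomycin and to 10409 to 17737 TPM with vehicle. Ncr1, which encodes NKp46, averaged 123 TPM after ionomycin and 795 TPM after vehicle. The 5 listed T cell markers summed to 5.93 to 13.2 TPM with ionomycin and to 0.24 to 5.02 TPM with vehicle, and the 6 monocyte and macrophage markers to 89.0 to 163 TPM and 155 to 330 TPM. The 5 dendritic cell markers were at 3.69 to 6.85 TPM with ionomycin and, without overlap, at 11.3 to 15.9 TPM with vehicle. B and plasma cell markers were at 80.3 to 118 and 54.1 to 199 TPM. Single genes made some of these sums. In vehicle replicates 1 and 2, Zbtb46 alone made the dendritic sum and Ccr2 alone the monocyte and macrophage sum. In vehicle replicate 1, Ighm alone made the B and plasma cell sum. The sums are therefore no measure of how many such cells were present. Neutrophil markers were at 118 TPM in ionomycin replicate 3 and 278 TPM in vehicle replicate 3 and at no more than 2.19 TPM in the other 4 libraries. The 4 ILC1 markers were at 11.9 to 24.4 TPM with ionomycin and 16.1 to 74.6 TPM with vehicle, highest in vehicle replicate 3. Of the defining markers, Cd4, Cd8a, Ms4a1, Adgre1, Ly6g, Mpo, Xcr1 and Siglech were at 0 in all 6 libraries. More genes were above 0 with ionomycin (15157 to 15483) than with vehicle (13904 to 14578), without overlap. Slc9b2 and Bdh2 were listed at 0 in the vehicle libraries. The part of these levels in the members' values was not tested. In bulk samples, fewer cells with a transcript and less RNA per cell cannot be told apart.

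Kif15 was high with ionomycin without the genes it works with in mitosis. Kif11, the kinesin with which Kif15 shares its spindle task, was at 2.58, 0.92 and 1.68 TPM with ionomycin and at 2.47, 0.02 and 0.46 TPM with vehicle. Kif15 was thus more abundant than Kif11 in each ionomycin library, on a scale that is per length. Tpx2 was at 16.1, 7.65 and 2.38 TPM with ionomycin and at 9.25, 2.62 and 10.9 TPM with vehicle. Both overlapped between the groups, with log2 differences of 0.61 (adjusted p = 0.773) and 0.06 (adjusted p = 0.987).

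Of 14 mitotic kinesins and partners, 13 were tested in the ionomycin comparison and 0 were called, at a median difference of 0.13. Differences were positive for 10 of these genes and negative for 3. None of them had an unadjusted p under 0.05. Of 26 proliferation genes (cyclins, mitotic kinases, Mcm helicase subunits and the like), 1 was called, at a list median of -0.08 against -0.004 over all genes. It was Mcm6, a subunit of the replicative helicase, whose level was 316 ± 26.4 TPM after ionomycin and 84.2 ± 15.9 TPM after vehicle (SD, n = 3), a rise of 1.91 (adjusted p = 0.00489, limma). Without ionomycin replicate 2 or 3 its adjusted p was 0.0565 or 0.0526. The summed TPM of the 26 genes were 704 to 808 with ionomycin and 569 to 737 with vehicle, so the groups overlapped.

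In the antibody table, which the choice of genes did not use, Kif15 differed between libraries together with these genes. Kif15 was at 7.03, 14.5 and 37.9 TPM in medium, at 25.5, 29.6 and 55.3 TPM with antibodies to NKp46 and NKG2D, and at 29.4, 31.9 and 60.2 TPM with antibodies to NKp46 and DNAM-1. The highest medium library lay inside the range of both antibody groups. Against medium, the log2 difference was 1.08 (95% interval -0.11 to 2.26, adjusted p = 0.369) for NKp46 and NKG2D and 1.22 (0.04 to 2.41, adjusted p = 0.267) for NKp46 and DNAM-1, so neither was called. Called genes made up 0.431% and 0.782% of the 13689 tested, and both comparisons share the medium libraries. Genes above 0 numbered 13555 to 14674 in medium and 16107 to 18096 in the antibody libraries, without overlap, and the part of this in the Kif15 levels was not tested. In the replicates numbered 1, 2 and 3, Kif15 was at 4.19, 2.20 and 1.59 times the medium level with NKp46 and DNAM-1, and at 3.62, 2.04 and 1.46 times with NKp46 and NKG2D. With the replicate number as a block, the adjusted p for Kif15 was 0.0434 with NKp46 and DNAM-1 and 0.0824 with NKp46 and NKG2D. Without medium replicate 3 the differences were 1.82 (adjusted p = 0.0514) and 1.68 (adjusted p = 0.0756). The sample titles name another group than the column names for 6 of the 9 antibody libraries. Grouped by the titles, the Kif15 differences were 0.42 and 1.46, and neither was called.

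The mitotic genes had differences of the same sign in these libraries. All 26 proliferation genes had positive differences in both antibody comparisons, with medians of 1.24 for NKp46 and NKG2D and 1.41 for NKp46 and DNAM-1, against -0.044 and -0.042 over all genes. None was called by limma without the block, where 21 and 25 had an unadjusted p under 0.05, and 12 and 16 were called with it. Of all 13689 genes tested, 2069 and 2458 had an unadjusted p under 0.05 without the block. Of the 14 kinesins and partners, 12 were positive in each comparison, with medians of 1.30 and 1.48. There, 0 were called without the block (8 and 9 with an unadjusted p under 0.05), and 3 and 5 with it. Without medium replicate 3, and without a block, 7 and 17 proliferation genes and 3 and 6 kinesins or partners were called. Over all genes, 311 and 604 were then called. The summed proliferation genes were at 628 to 1785 TPM in medium, 1792 to 3216 TPM with NKp46 and NKG2D, and 2102 to 3405 TPM with NKp46 and DNAM-1.

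**Figure D2:**
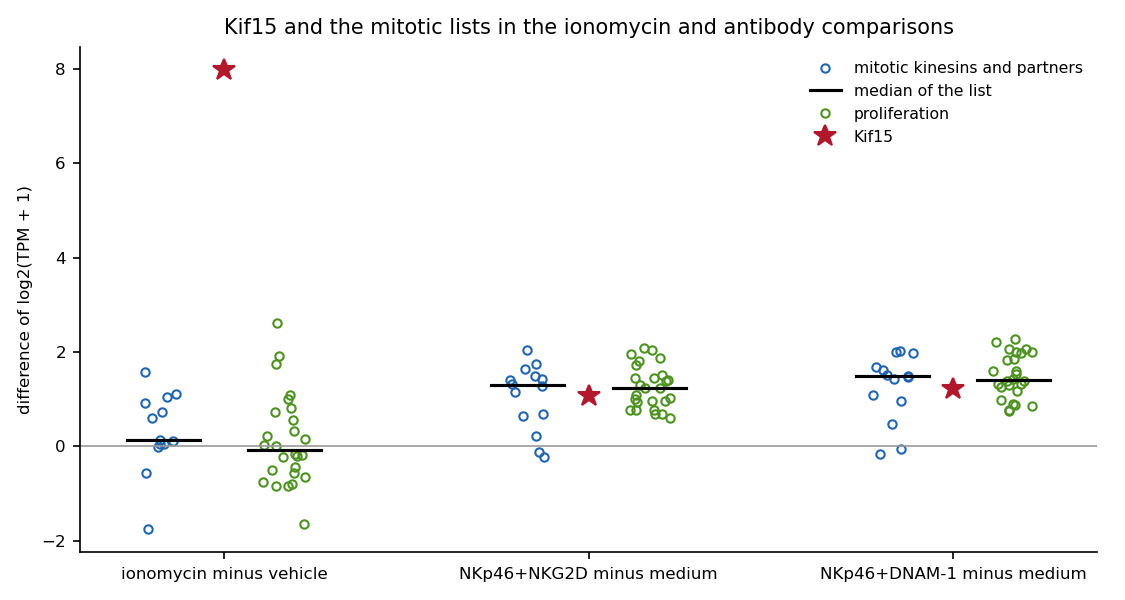
Difference of log2(TPM + 1) for each tested gene of 2 lists (circles), the list medians (black lines) and Kif15 (star) in 3 comparisons. With ionomycin Kif15 stood at 7.98, far above medians of 0.13 and -0.08, and in the antibody comparisons it stood at 1.08 and 1.22 among list genes with medians of 1.24 to 1.48.

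Across the 9 antibody libraries, log2 levels of Kif15 followed those of the mitotic genes. The genes with the highest Pearson r were Sgo2a (0.993), a protector of centromere cohesion, Slc43a3 (0.993) and Stt3b (0.988), a subunit of the oligosaccharyltransferase. Over the 40 genes of both lists the median r was 0.928, with 38 above 0.5, while the median over all tested genes was -0.083. Mki67 (0.982), Kif11 (0.965) and Tpx2 (0.972) were among them. In the 18 subset libraries the closest genes were Polm (0.853), Actb (0.814) and Mx1 (0.808), and the median over 35 tested list genes was 0.081, with 1 above 0.5. These values are descriptions over libraries that share groups, and Kif15 was low throughout the subset table.

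**Figure D3:**
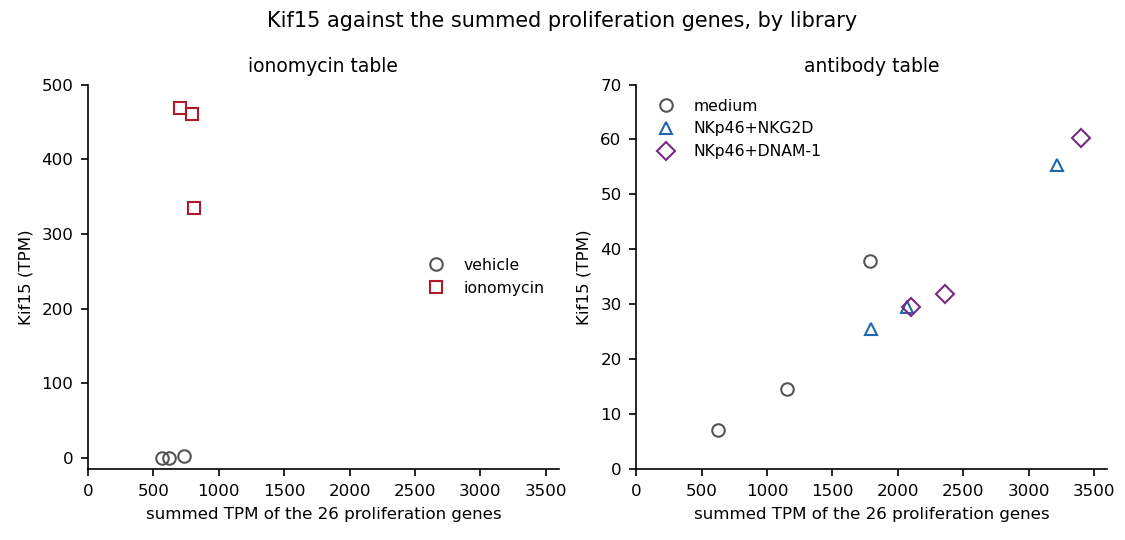
Kif15 (TPM, vertical axis, different scales) against the summed TPM of 26 proliferation genes in each library of the ionomycin table (left) and the antibody table (right). The ionomycin libraries reached 334 to 468 TPM of Kif15 at sums of 704 to 808. The antibody libraries, on a separate axis, reached 60.2 TPM at a sum of 3405.

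In freshly sorted cells Kif15 was at 0.9 to 10.8 TPM. WT cells averaged 6.41 ± 2.07 TPM (TP), 7.42 ± 2.99 TPM (SP) and 4.23 ± 2.97 TPM (TN), and KO cells 3.36 ± 1.16, 3.74 ± 1.02 and 2.32 ± 1.67 TPM (SD, n = 3). The KO means were lower in each subset. The ranges of WT and KO cells overlapped in TP and TN cells and not in SP cells, from which nothing is read at 3 against 3. The log2 differences, KO minus WT, were -0.76 (adjusted p = 0.578), -0.80 (adjusted p = 0.544) and -0.60 (adjusted p = 0.712), so none was called, where 1.59%, 1.35% and 0.716% of 12018 tested genes were. TN against TP cells differed by -0.64 in WT (adjusted p = 0.632) and -0.48 in KO (adjusted p = 1.0), where 1.31% and 0.524% of genes were called. In the tumour libraries Kif15 was at 1.91, 4.89 and 10.5 TPM. Within the subset table its group means ran from WT SP through WT TP, WT TN, KO SP and KO TP to KO TN, and neighbours in this order overlapped. Within the antibody table they ran from NKp46 and DNAM-1 (40.5 TPM) through NKp46 and NKG2D (36.8 TPM) to medium (19.8 TPM), again with overlap between neighbours.

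Slc9b2 was at or near 0 in the rest of the series. In the antibody table it was listed at 0 in 6 of 9 libraries and reached 0.75 TPM, in a library with NKp46 and NKG2D antibodies. In the subset table it was listed at 0 in 12 of 18 libraries and reached 0.09 TPM, and it was listed at 0 in all 3 tumour libraries. It was thus below the 1 TPM mean needed for a test in these tables. With that filter removed, none of its differences was called in either table.

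Its neighbours on chromosome 3 were measured in the same libraries. Bdh2, which encodes a cytosolic dehydrogenase and precedes Slc9b2, was at 23.5, 13.2 and 13.6 TPM with ionomycin and listed at 0 in all 3 vehicle libraries. It rose by 4.10 on the log2(TPM + 1) scale (adjusted p = 0.00999, limma). This difference depends on the added 1 TPM, at 3.84 to 7.34 over the alternatives. Bdh2 passed the 1 TPM filter only through its ionomycin libraries, so nothing is read from its adjusted p. Without ionomycin replicate 1, 2 or 3 its adjusted p was 0.0787, 0.0784 or 0.0825. Bdh2 was listed at 0 in all libraries of the antibody, subset and tumour tables. Slc9b1, the related exchanger on the other side, was at 13.7 and 0.68 TPM in 2 ionomycin libraries and listed at 0 in the other and in vehicle (difference 1.54, adjusted p = 0.572). In medium, where Slc9b2 was listed at 0 throughout, Slc9b1 was at 29.5 and 2.59 TPM and listed at 0 in 1 library. Further out, Cenpe, a kinetochore kinesin, differed by 0.91 (adjusted p = 0.733) and Cisd2 by -0.26 (adjusted p = 0.749). In the GENCODE M21 annotation no other gene overlapped Slc9b2.

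**Figure D4:**
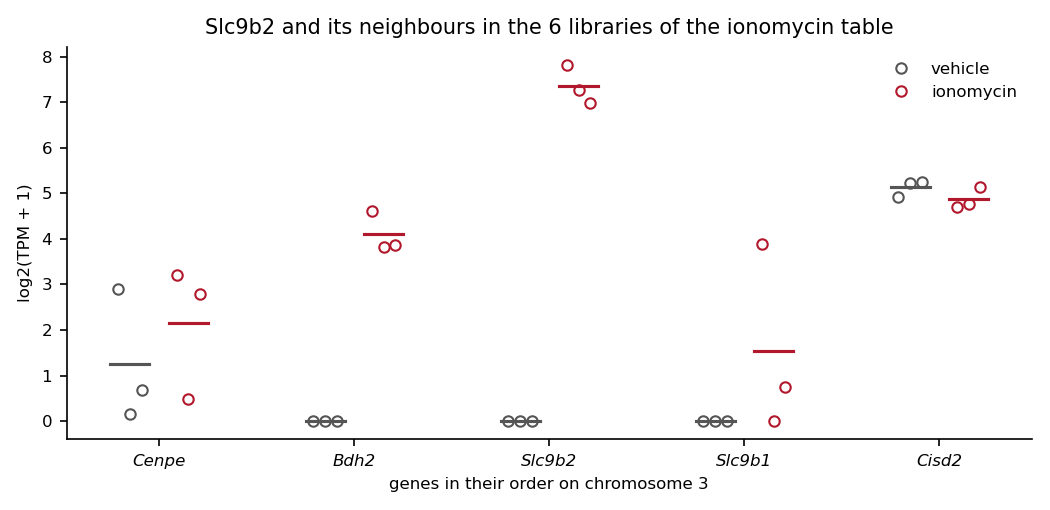
Level as log2(TPM + 1) of Slc9b2 and its neighbours in the 6 libraries of the ionomycin table (circles, with lines for means). Slc9b2 and Bdh2 were at 0 in every vehicle library and above 0 in every ionomycin library, while Cisd2 differed by -0.26.

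None of the other exchangers tested was called with ionomycin. Of 12 Slc9 genes and partners listed, 9 were tested in the ionomycin comparison, 0 were called higher and 1 lower, at a median difference of -0.44. That gene, Slc9a3r1, encodes a scaffold for the exchangers and not an exchanger, and fell by 1.13 (84.3 ± 5.72 against 187 ± 21.2 TPM, SD, n = 3, adjusted p = 0.0255). It was called in 6 of 11 alternatives and lost without any 1 ionomycin replicate or vehicle replicate 2, at an adjusted p of at most 0.142.

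The neighbours of Kif15 were not called either. 1110059G10Rik differed by -0.42 (adjusted p = 0.659) and Tmem42 by 0.40 (adjusted p = 0.695). Only Gm47148 overlapped Kif15 in the annotation, with no shared exon base, and its mean was 0 in both groups.

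Sema6d ranged from 0 to 15.5 TPM over the other tables, which were not compared with the ionomycin table. In medium at 48 h it was at 1.28 and 1.44 TPM and listed at 0 in 1 library. With NKp46 and NKG2D antibodies it was at 1.07, 2.39 and 14.3 TPM, and with NKp46 and DNAM-1 antibodies at 2.98, 1.43 and 13.3 TPM. The library numbered 3 was the highest in each group, and the groups overlapped. The differences from medium were 1.42 (interval -0.47 to 3.32, adjusted p = 0.456) and 1.55 (-0.35 to 3.44, adjusted p = 0.373), and with the sample titles as groups the first was -0.40. Dgat1 (r = 0.970), Ly6a (0.965) and Cd28 (0.965) followed it most closely over the 9 libraries. In the subset table Sema6d was listed at 0 in 12 of 18 libraries and reached 0.28 TPM, and in the tumour libraries it was at 4.79, 2.55 and 15.5 TPM. The neighbours of Sema6d in the ionomycin table, among them Sqor (0.91, adjusted p = 0.648) and Slc24a5 (-1.49, adjusted p = 0.442), were not called.

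Receptors and relatives of Sema6d changed in both directions with ionomycin. Of 35 semaphorins, plexins and co-receptors, 19 were tested, with 2 called higher and 2 lower, at a median of 0.39. The 2 that rose were receptors. Plxna3, a plexin-A, was at 47.5 ± 4.31 TPM against 0.967 ± 0.402 TPM (SD, n = 3), a difference of 4.64 (adjusted p = 0.00274), and was called in 11 of 11 alternatives. Nrp1, a co-receptor of secreted semaphorins, was at 28.8, 15.1 and 18.1 TPM with ionomycin, at 0.44 and 1.17 TPM in 2 vehicle libraries and listed at 0 in the other, a difference of 3.84 (adjusted p = 0.013). Without ionomycin replicate 1, 2 or 3 its adjusted p was at most 0.0977 and it was not called.

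Sema4a, another transmembrane semaphorin, fell by 3.05, from 245 ± 51.4 to 32.5 ± 18.1 TPM (adjusted p = 0.013). The adaptor gene Tyrobp fell by 0.88 (adjusted p = 0.0457). They were called in 6 and 3 of 11 alternatives, and leaving out ionomycin replicate 1 or 2 or vehicle replicate 2 ended both calls, as did ionomycin replicate 3 or vehicle replicate 3 for Tyrobp. The adjusted p was then at most 0.0721 for Sema4a and, over all its alternatives, 0.231 for Tyrobp. Plxna1, the best known partner of Sema6d, was at 3.27, 1.45 and 1.86 TPM with ionomycin and, with vehicle, at 0.96 and 7.2 TPM in 2 libraries and listed at 0 in the other (difference 0.30, adjusted p = 0.921).

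Gvin-ps4 and its copy were read best as a pair. With ionomycin, Gvin-ps2 was at 14.9, 9.37 and 4.70 TPM where Gvin-ps4 was at or near 0. With vehicle, Gvin-ps2 was at 51.8 and 122 TPM and listed at 0 in the library where Gvin-ps4 was at 91.1 TPM. The sums were 14.9, 9.41 and 4.70 TPM with ionomycin and 133, 210 and 91.1 TPM with vehicle, and did not overlap. Fitted as 1 row, the pair differed by -3.81, against -6.43 for Gvin-ps4 alone.

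The intact relatives fell with it. Gvin1 was at 151, 54.0 and 63.5 TPM with ionomycin and at 388, 948 and 526 TPM with vehicle, a difference of -2.83 (adjusted p = 0.0139, limma). Gvin2 was at 222, 165 and 200 TPM against 576, 1531 and 1121 TPM, a difference of -2.35 (adjusted p = 0.0107). Leaving out ionomycin replicate 2 or 3 ended both calls, as did ionomycin replicate 1 for Gvin2 and vehicle replicate 2 for Gvin1, with adjusted p up to 0.103 for Gvin1 and 0.0882 for Gvin2.

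Other interferon-inducible GTPases gave 0 called higher and 2 lower of 17 tested, at a median of -0.65. They were Gbp4, which fell by 1.69 (adjusted p = 0.0107), and Gbp7, which fell by 1.49 (adjusted p = 0.0198), and each was called in 6 of 11 alternatives. Both calls were lost without any 1 ionomycin replicate or vehicle replicate 2, at an adjusted p of at most 0.0806 and 0.123. Of 19 other interferon-stimulated genes, 2 had positive differences and 17 negative ones, at a median of -0.69, and 1 was called. It was Zbp1, a sensor of nucleic acids, which fell by 2.48 (adjusted p = 0.0255). Its adjusted p was 0.0848 without ionomycin replicate 2, 0.126 without ionomycin replicate 3 and 0.0973 without vehicle replicate 2.

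In the antibody table the split between the copies varied more than their sum. Gvin-ps4 was at 44.7, 102 and 33.5 TPM in medium, where Gvin-ps2 was at 63.5, 17.2 and 78.9 TPM, and the sums were 108, 119 and 112 TPM. Over the 9 libraries the coefficient of variation was 37.9% for Gvin-ps4, 37.1% for Gvin-ps2 and 8.9% for the sum. The levels of the copies ran opposite to each other, with Pearson r of -0.898 (exact permutation p = 0.00118, n = 9) and Spearman rho of -0.817 (p = 0.0108). Without the 2 libraries farthest from the median of Gvin-ps4, r was -0.768. In the 18 subset libraries r was -0.587 (permutation p = 0.0103), rho was -0.631 (p = 0.00552), and r without the 2 farthest was -0.632. Adjusted over these 2 tables, the p-values of r were 0.00236 and 0.0103 and both p-values of rho were 0.0108. The less a sum varies, the more its parts run opposite by arithmetic. Each table also pools libraries of several groups, which the permutations mixed. The p-values are therefore no test of a link between the copies, and nothing is read from them. In the tumour libraries the copies were at 49.5 and 0, 18.2 and 27.5, and 1.71 and 76.7 TPM.

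**Figure D5:**
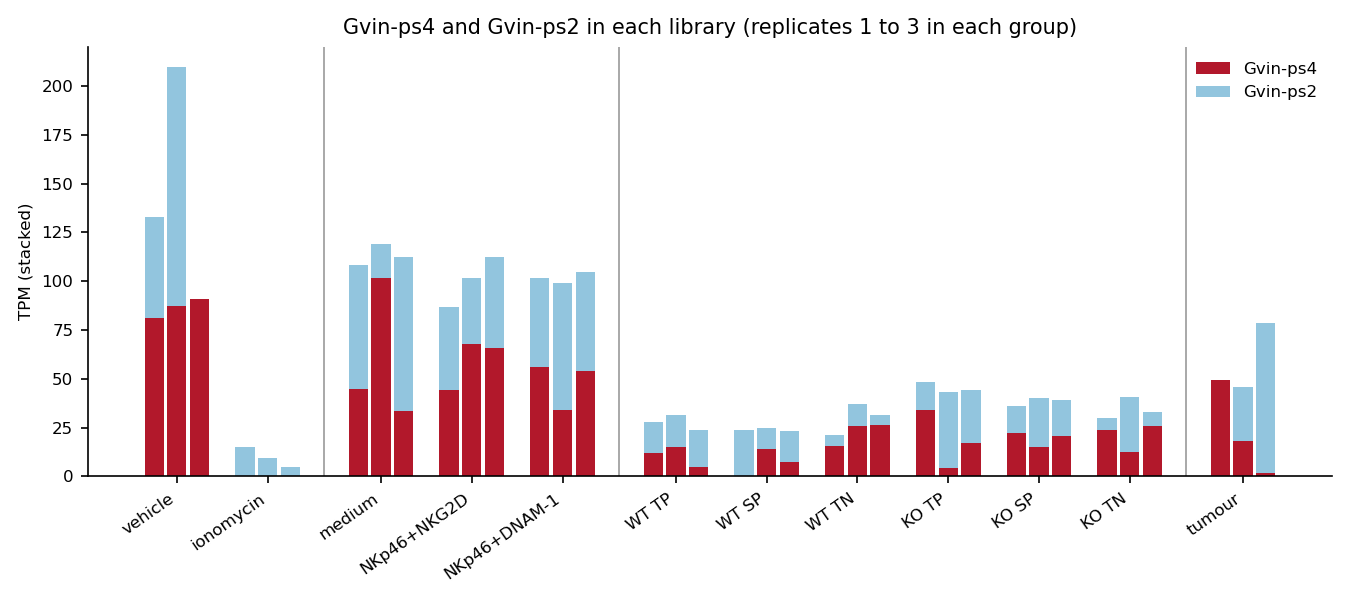
Gvin-ps4 (red) and Gvin-ps2 (blue) in TPM, stacked, in each library of every group, with grey lines between tables. The share of Gvin-ps4 ran from 29.8% to 85.6% among the medium libraries while the sums stayed at 108 to 119 TPM, and both copies together reached 14.9 TPM with ionomycin.

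No difference of Gvin-ps4 was called in the antibody or subset tables. Against medium it differed by 0.12 (interval -0.71 to 0.95, adjusted p = 0.905) and -0.19 (-1.02 to 0.65, adjusted p = 0.842), and the summed pair by -0.18 and -0.15. KO minus WT was 0.49 in TP cells, 1.99 in SP cells (interval 0.34 to 3.64, adjusted p = 0.306) and -0.14 in TN cells. In SP cells it was at 22.2, 15.1 and 20.5 TPM in KO and at 13.9 and 7.6 TPM and listed at 0 in WT. The groups did not overlap, from which nothing is read at 3 libraries each. TN minus TP was 1.10 in WT (adjusted p = 0.608), again without overlap, and 0.48 in KO. For the sum these differences were 0.09 (adjusted p = 0.903) and -0.39 (adjusted p = 0.77), and the sums of WT TN (21.2 to 37.1 TPM) and WT TP cells (23.6 to 31.2 TPM) overlapped.

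In KO TP and SP cells the copies' sum lay above WT without overlap, from which nothing is read, and neither difference was called. It was at 45.1 ± 2.69 TPM in KO and 27.5 ± 3.8 TPM in WT TP cells, and at 38.5 ± 2.01 and 23.9 ± 0.752 TPM in SP cells (SD, n = 3). The differences of the sum were 0.70 (interval 0.32 to 1.09, adjusted p = 0.0706) and 0.66 (0.28 to 1.05, adjusted p = 0.0954), which missed the threshold, and 0.22 in TN cells (adjusted p = 0.724). Markers of other cell types also stood apart in KO TP cells. The 7 B and plasma cell markers summed to 334 to 517 TPM against 167 to 181 TPM in WT TP cells, and the 6 neutrophil markers to 47.2 to 173 TPM against 0 in all 3 WT TP libraries. In SP cells the B and plasma cell markers were at 197 to 225 TPM in KO and 181 to 191 TPM in WT, and the neutrophil markers at no more than 3.16 TPM. Their part in the sums of the copies was not tested. Gvin1 was higher in KO than in WT SP cells by 0.60 (adjusted p = 0.039), a call that 9 of 12 alternatives lost, with an adjusted p of 0.0583 after rescaling by median-of-ratios factors and of up to 0.161 when 1 library was left out.

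Genes of the calcium, calcineurin and NFAT response set the members in context. Of 20 such genes, 7 were called higher and 1 lower with ionomycin, beside 2.91% of all genes, at a median of 1.56. The list was chosen with earlier results of these data known and holds Spry1 and Nr4a2, which ranked next to the members. Its counts are therefore a description and no test of this response. With the replicate number as a block, 9 were called higher and 1 lower. Without ionomycin replicate 1, 2 or 3, the calls were 3, 3 and 2 higher and 0 lower. Nr4a3 and Spry1 were called in 11 of 11 alternatives, and Irf4, Lag3, Ikzf2 and Cblb in 9, 7, 5 and 4, all higher with ionomycin. Egr1 was the gene called lower, at -1.57 to -1.21 over the alternatives, and was called in 5 of them. Nr4a2 and Nr4a3, orphan nuclear receptors, reached 1348 ± 245 and 559 ± 77.0 TPM against 24.2 ± 18.9 and 15.0 ± 2.46 TPM with vehicle (SD, n = 3). Nr4a3 rose by 5.13, and Nr4a2 missed the threshold without ionomycin replicate 2 or 3 (adjusted p = 0.0565 or 0.0531). Spry1, a feedback inhibitor of MAP kinase signalling, was at 137, 72.2 and 84.1 TPM with ionomycin. It was listed at 0 in all vehicle, antibody and subset libraries, as Slc9b2 nearly was. Spry1 thus passed the 1 TPM filter only through its ionomycin libraries, and nothing is read from its calls. With the antibodies, 2 of 19 genes of this list were called higher and 5 lower in each comparison, at medians of -0.12 and -0.24. Of all genes, 0.431% and 0.782% were called there.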

How the data were processed

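Total RNA was made into mRNA libraries with the KAPA mRNA HyperPrep kit, per the labels' protocols, and the submitters' processing notes name STAR, RSEM and GRCm39, without versions. The authors deposited 4 tables of TPM. Library sums were 1000000 TPM in the ionomycin, antibody and tumour tables and 934292 to 948786 TPM in the subset table, so read depth is unknown and counting errors are not given. Genes above 0 per library numbered 12290 to 14501 in the subset table, 13904 to 15483 in the ionomycin table, 13555 to 18096 in the antibody table and 14155 to 16271 in the tumour table. Precision comes from the spread over 3 replicates. Nothing says whether counting used strand.

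Within each table, genes averaging 1 TPM or more were fitted as log2(TPM + 1), which understates changes of low genes, with limma 3.58.1 in R 4.3.3. The fit had a mean per group of the table, a variance trend, two-sided moderated tests and Benjamini-Hochberg adjustment over all genes tested. Genes were called at an adjusted p under 0.05. An exact permutation test of 3 against 3 cannot give a p under 0.1. Groups without overlap are therefore described only, and the share of such genes among all tested is not given. Correlation p-values are from permutations of the pairings, two-sided, exact in the antibody table and with 100000 resamples in the subset table. Gene lists were fixed for this report, and both the lists and the members were chosen with earlier results of these data known. Named genes were drawn from the members, the 3 largest rises and falls with those next in rank, up to 3 neighbours on each side in the RefSeq order, the 3 most similar genes in each table, and the called genes and first entries of the lists. Sequences come from RefSeq and GENCODE M21 for GRCm38 and were used for names, order and sequence only. Transcripts were aligned with Biopython. On simulated data with 200 genes changed by 3 on the log2 scale, the fit recovered 83.5% for ionomycin, tested on 13684 genes. The changed genes had a mean log2(TPM + 1) above 3, left out the most variable genes, and carried normal noise. The share recovered therefore does not cover low or variable genes.

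Antibody groups follow the column names, since titles name another group for 6 of 9 samples. The tumour columns carry the words B2MKO and SP, which the titles leave unexplained. Groups follow the titles there. Antibody and subset column names (WT1, KO1) could mark 1 mouse per number, which no label states. Same-numbered libraries correlated at 0.064 on average in their deviations from group means in the antibody table (others -0.032). The averages were 0.062 in the ionomycin table (others -0.031) and 0.010 in the subset table (others -0.005). As no label states the pairing, the main fits have no block, though these averages do not exclude a pairing. Blocked values are given where they change a member's call or a list count reported here. Each table has a single batch date. The labels call the replicates biological without naming the mice, so p-values measure the spread between these samples. A few single-gene values are not reported here.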

Additional observations from a re-analysis of the deposited data

How the results depend on the processing

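All 20 differences of the members were recomputed under the other settings. With 0.1 TPM added in place of 1 TPM, the ionomycin differences of Kif15, Slc9b2 and Gvin-ps4 were 9.92, 10.67 and -9.60, and Gvin-ps4 summed with Gvin-ps2 (a setting chosen after seeing the data) gave -3.81. Summing also turned the sign of Gvin-ps4 to -0.18 against medium for NKp46 and NKG2D, to 0.22 for KO minus WT in TN cells and to -0.39 for TN minus TP in KO cells. With groups from the sample titles, Sema6d was -0.40 for NKp46 and NKG2D, and Gvin-ps4 was 0.03 for NKp46 and DNAM-1. With the replicate block, Kif15 was called for NKp46 and DNAM-1 (1.22, adjusted p = 0.0434), and no other member changed its call.

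Called genes numbered 418 for ionomycin, 185 without the filter and 172 without the variance trend. For NKp46 and NKG2D they numbered 59, 239 with the replicate block, 37 with only the compared groups and 0 by the titles. For NKp46 and DNAM-1 they numbered 107, 45 without the filter, 528 with the block, 38 with only the compared groups and 1 by the titles. With only the compared groups, KO minus WT gave 91 (TP), 84 (SP) and 32 (TN) and TN minus TP in WT gave 43. Leaving out each replicate, with the filter applied to the remaining libraries, gave 43 to 712 for ionomycin (43 without ionomycin replicate 3, 712 without vehicle replicate 3), 31 to 311 and 26 to 604 for the antibody pairs (highest without medium replicate 3), 108 to 151, 88 to 163 and 52 to 114 for KO minus WT in TP, SP and TN cells, and 102 to 152 and 41 to 51 for TN minus TP in WT and KO. Among members, leaving out each replicate moved Gvin-ps4 between -0.21 and 0.58 and between -0.52 and 0.27 against medium, between -0.13 and 1.23 for KO minus WT in TP cells, between -0.38 and 0.18 in TN cells and between -0.27 and 1.09 for TN minus TP in KO cells. The ionomycin differences kept their sign, at 7.61 to 8.60 (Kif15), 7.12 to 7.54 (Slc9b2), -5.89 to -4.16 (Sema6d) and -6.48 to -6.39 (Gvin-ps4). The cause of these shifts was not tested. Without depth, low values and zeros carry no limit of detection.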
